A study of Canis lupus familiaris with 25 samples.

Results

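The insulin-like growth factor (IGF) axis was described in canine perianal tumors through 10 genes: IGF1, IGF2, IGF1R, IGFBP2, IGFBP3, IGFBP4, IGFBP5, IGFBP6, IGFBP7 and GHR. The genes were found by their symbol among the 24532 genes of a table of QuantSeq 3′ read counts, and all 10 were present. QuantSeq 3′ reads the end of each transcript, so a count is a number of tags per gene and levels were compared between samples, not between genes. Archival formalin-fixed, paraffin-embedded (FFPE) tissue of privately owned dogs had given 25 samples in 3 groups. The 10 hepatoid gland adenomas (HGA), benign tumors of the modified sebaceous glands around the anus, came from 5 female and 5 male dogs aged 8 to 14 years, 6 of them intact and 4 neutered. The 11 primary apocrine gland anal sac adenocarcinomas (AGASAC), malignant tumors of the sweat glands of the anal sac, came from 5 female and 6 male dogs aged 8 to 12.5 years, 2 of them intact and 9 neutered. The 4 metastases were sublumbal lymph nodes of the dogs that gave AGASAC 1 to 4, so that each had a primary tumor of the same animal. These were 2 female and 2 male dogs aged 8 to 10 years, 1 of them intact and 3 neutered. Breeds were mixed, no sample of healthy gland was part of the groups, and the tumors were dissected to leave out adjacent tissue.

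IGF1 and IGF2 are secreted peptides that act through the receptor tyrosine kinase IGF1R, which passes the signal to phosphatidylinositol 3-kinase (PI3K), AKT and mTOR. The IGF binding proteins (IGFBPs) hold the peptides in the extracellular space, prolong their life and release them when proteases cleave the binding protein. Growth hormone, through its receptor GHR and the kinase JAK2, switches on IGF1 in the liver and in other tissues, which ties GHR to the axis from above.

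Total counts ranged from 1562347 to 6389555 per sample in HGA, from 2581453 to 4218340 in AGASAC and from 2857541 to 3289546 in the metastases. Levels are given as CPM, the tags of a gene relative to all tags of the sample, scaled with TMM factors over all 25 samples, and 3 counts, the limit that a count of 0 allows, corresponded to 0.543 to 1.84 CPM. Such limits cover counting error only, because the tags carried no molecular identifiers. The labeled tissues differed in their epithelial markers: all 6 markers of simple glandular epithelium were lower in HGA, with KRT8 and PIP among them, and all 5 tested markers of stratified and sebaceous epithelium were higher, with KRT79 at 0 in every AGASAC. HGA 10 and HGA 4 stood apart from the other HGA, with Spearman correlations to the median profile of their group of 0.793 and 0.857 while the highest was 0.955. HGA 4 also had the fewest counts of all samples. Results that rest on these tumors are given with and without them.

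"HGA versus AGASAC" asked which genes separate tumors that differ in gland of origin as well as in being benign or malignant. Gland of origin and malignancy cannot be told apart by this design. In this comparison 4 of the 10 genes passed both thresholds, a log2FC beyond 1 in either direction and an adjusted p (padj) of 0.05 or less, from the quasi-likelihood test of edgeR adjusted by Benjamini-Yekutieli over the 12070 genes tested. IGF1R, IGFBP2 and IGFBP4 were higher in HGA, and GHR was lower. Of all genes tested, 25.1% passed, 12.6% as higher and 12.5% as lower in HGA, so that 4 of 10 was set against that share. The median log2FC of the 10 genes was 1.103, against −0.03 over all genes. The 10 genes were chosen with earlier results of these data known, so these figures only describe them and do not test the axis as a set. IGFBP4 was the only gene of the 10 whose HGA and AGASAC values did not overlap, which 9.13% of all genes tested achieved. Without HGA 4 and HGA 10, 5 of the 10 passed, IGF1 being the addition. In bulk tissue, fewer cells that express a gene and less RNA per cell cannot be told apart.

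**Figure D1:**
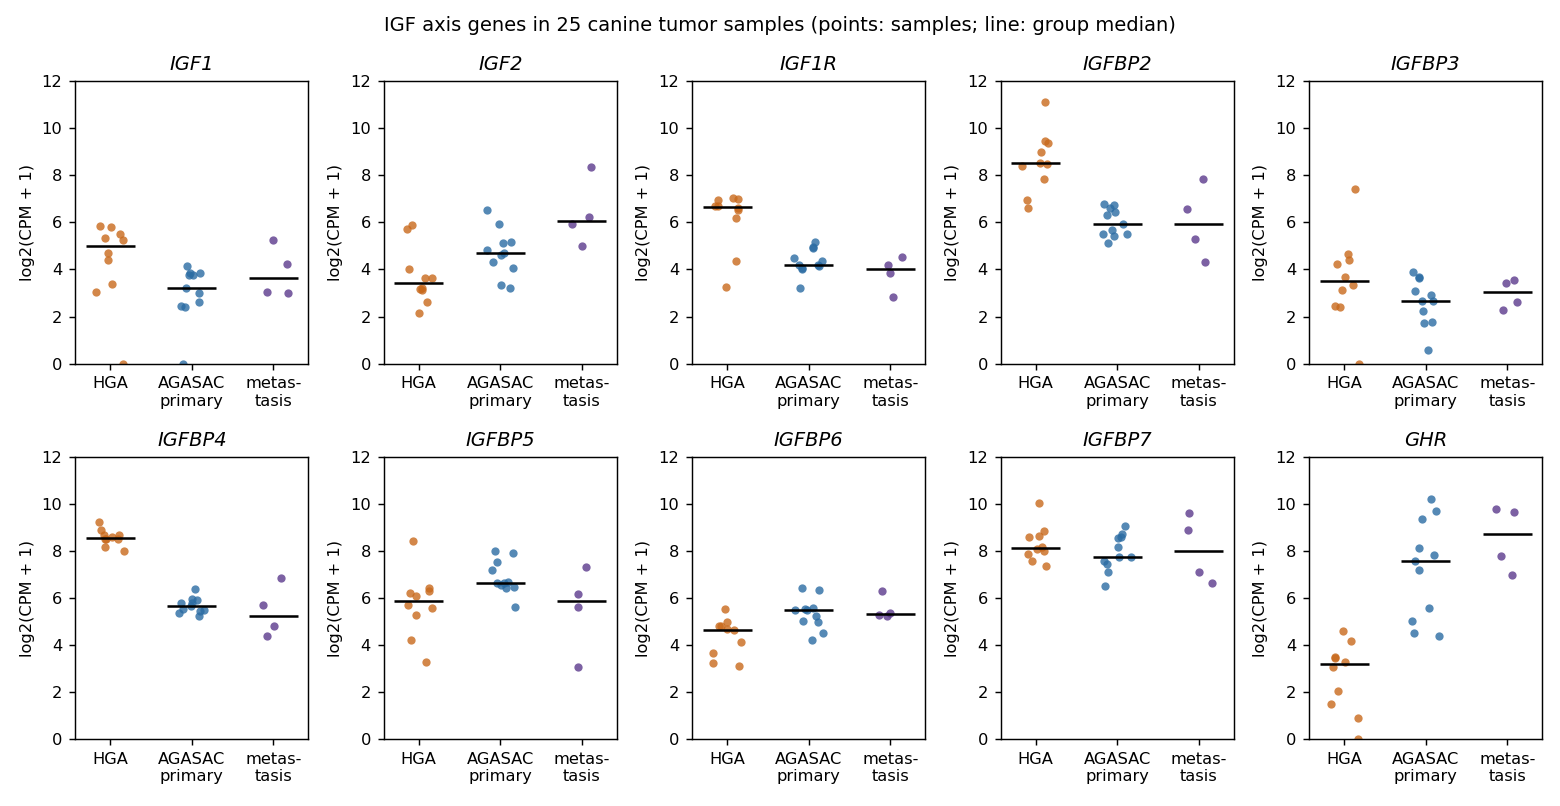
Level of each of the 10 IGF axis genes as log2(CPM + 1) in the 10 HGA, the 11 AGASAC primary tumors and the 4 metastases; each point is 1 sample and the line is the group median. IGFBP4 is the gene with a clear gap between HGA (256 to 607 CPM) and AGASAC (36.5 to 82.0 CPM), IGF1R is high in all HGA but HGA 10 and HGA 4, and GHR spreads widely in AGASAC.

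The ligands came first. IGF1, the mediator of growth hormone action, ranged in HGA from 0 to 56.5 CPM with a median of 31.3 CPM, and in AGASAC from 0 to 16.9 CPM with a median of 8.33 CPM. The metastases had 7.14, 36.6, 7.08 and 17.6 CPM. The groups overlapped through HGA 4 with no count, HGA 10 with 7.31 CPM and HGA 9 with 9.33 CPM, while the other 7 HGA, at 20.1 CPM or more, all exceeded every AGASAC. The log2FC of HGA versus AGASAC was 1.74 (SE 0.55, padj = 0.115), so IGF1 did not pass. Without HGA 4 it passed with a log2FC of 1.89 (padj = 0.0184), and without HGA 4 and HGA 10 with 2.02 (padj = 0.00713).

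IGF2, the ligand that is imprinted and most active before birth, leaned the other way without passing the test. It ranged from 3.47 to 58.2 CPM in HGA (median 9.77 CPM) and from 8.16 to 90.2 CPM in AGASAC (median 24.8 CPM). In the metastases it was counted at 31.1, 73.2, 60.5 and 328 CPM. HGA 3 and HGA 7, with 58.2 and 51.6 CPM, were the only HGA above 15.4 CPM and reached into the upper part of the AGASAC values. The log2FC was −0.79 (SE 0.49, padj = 1).

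Among the receptors, IGF1R was higher in HGA. Its level ranged from 8.60 to 128 CPM in HGA (median 98.7 CPM), from 8.39 to 35.3 CPM in AGASAC (median 17.5 CPM), and was 13.6, 22.0, 17.05 and 6.07 CPM in the metastases. HGA 10 with 8.60 CPM and HGA 4 with 19.7 CPM lay within the AGASAC range, and the other 8 HGA, at 72.3 CPM or more, lay above all AGASAC and all metastases. The difference passed the test (log2FC 2.09, SE 0.34, padj = 0.000226), and without these 2 HGA it was 2.37 (padj = 8.03e-08). The same 2 tumors had the lowest IGF1 of the HGA. HGA 10 was also the only HGA whose read file bore the naming style that 7 of the AGASAC had, against 3 AGASAC and 9 HGA with the other style. With the naming style as a covariate the log2FC of IGF1R was 1.57 and no longer passed (padj = 0.296). That fit left out AGASAC 4, whose naming style was not known, and held HGA 10 as the only HGA of its style. Within the style of 9 HGA and 3 AGASAC, IGF1R passed with a log2FC of 2.13 (padj = 0.0195).

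GHR showed the largest log2FC of the 10 genes and, by its coefficient of variation, the widest spread in AGASAC. In HGA it ranged from 0 to 23.0 CPM with a median of 8.11 CPM. In AGASAC it ranged from 20.0 to 1194 CPM with a median of 192 CPM, a 59.7-fold span, and in the metastases it was 220, 879, 805 and 125 CPM. Low values, 20.0 to 47.0 CPM, were seen in AGASAC 4, 5, 8 and 9, and the other 7 AGASAC had 145 CPM or more. The groups overlapped only because HGA 8 with 23.0 CPM lay above AGASAC 4 and AGASAC 8. The log2FC of HGA versus AGASAC was −5.27 (SE 0.82, padj = 0.000133), a 38.5-fold lower level in HGA. With neuter status as a covariate it was −4.15 (SE 1.00, padj = 0.0184), and with the naming style as a covariate −6.50 (SE 0.79, padj = 1.34e-05). HGA 9 had no count, and HGA 10 and HGA 4 had 2 and 3 counts, so that these tumors sat at or under the limit that a count of 0 allows. Without HGA 4 and HGA 10 the log2FC was −5.01 (padj = 0.000754).

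IGFBP4, which mostly restrains IGF action, gave the most even difference. HGA ranged from 256 to 607 CPM with a median of 372 CPM (mean 391 ± 97.6, SD, n = 10). AGASAC ranged from 36.5 to 82.0 CPM with a median of 49.3 CPM (mean 51.8 ± 12.7, SD, n = 11), and the metastases had 19.8, 114, 27.0 and 51.1 CPM. The lowest HGA, HGA 8, was above the highest AGASAC and the highest metastasis. The coefficient of variation was 24.9% in HGA and 24.6% in AGASAC, the lowest of the 10 genes in both groups. The log2FC was 2.95 (SE 0.17, padj = 4.8e-11).

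IGFBP2, a binding protein of fetal and proliferating tissue, was also higher in HGA but varied more. It ranged from 96.2 to 2235 CPM in HGA (median 365 CPM) and from 34.3 to 109 CPM in AGASAC (median 60.6 CPM), with 94.1, 228, 38.3 and 18.8 CPM in the metastases. HGA 4 with 2235 CPM was more than 3 times the next HGA, HGA 10 with 696 CPM, and only HGA 7, with 96.2 CPM, lay within the AGASAC range. The log2FC was 3.09 (SE 0.44, padj = 3.87e-05) and 2.33 (padj = 3.27e-05) without HGA 4 and HGA 10. These 2 HGA, which had the least IGF1R, had the most IGFBP2. IGFBP5 is the neighbor of IGFBP2 in the dog genome, with 0 protein-coding genes between them in the assembly UU_Cfam_GSD_1.0, and it did not share the difference.

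IGFBP5, a matrix-bound binding protein, ranged from 8.78 to 339 CPM in HGA (median 58.9 CPM) and from 48.3 to 258 CPM in AGASAC (median 99.9 CPM). A single tumor, HGA 3 with 339 CPM, was far above the other HGA, of which the next had 84.3 CPM. The log2FC was −0.68 (SE 0.45, padj = 1) with HGA 3 and −1.31 (padj = 0.0493) without it. IGFBP3, the main carrier of IGFs in blood, was highest in the same tumor: HGA 3 had 170 CPM, whereas the HGA ranged from 0 with a median of 10.5 CPM and the AGASAC from 0.486 to 13.7 CPM with a median of 5.28 CPM. The log2FC of IGFBP3 was 2.08 (SE 0.69, padj = 0.168), and without HGA 3 it was 0.82 (padj = 1).

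IGFBP6, which prefers IGF2 over IGF1, ranged from 7.64 to 45.2 CPM in HGA (median 24.4 CPM) and from 17.7 to 84.5 CPM in AGASAC (median 43.4 CPM). Its log2FC of −0.94 (SE 0.31, padj = 0.135) did not pass, and it passed without HGA 7 (log2FC −1.11, padj = 0.0464). IGFBP7, a low-affinity relative of the family made by vessel and stroma cells, ranged from 166 to 1054 CPM in HGA (median 278 CPM) and from 91.3 to 537 CPM in AGASAC (median 212 CPM). The log2FC was 0.47 (SE 0.33, padj = 1). HGA 4, with 1054 CPM, again stood above all other HGA, of which the next had 465 CPM.

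**Figure D2:**
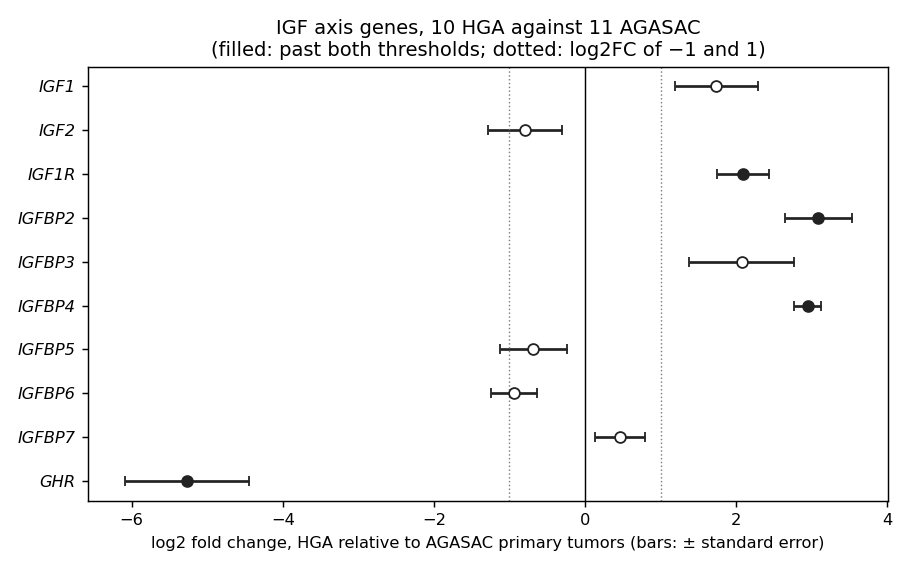
Log2 fold change of each of the 10 genes in HGA relative to AGASAC primary tumors with its standard error; filled points passed both thresholds and dotted lines mark log2FC of −1 and 1. IGFBP2 (3.09), IGFBP4 (2.95) and IGF1R (2.09) lie to the right and GHR (−5.27) to the left, and IGFBP4 has the shortest error bar.

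RNA had been extracted in batches, and 3 of them held at least 2 tumors of both kinds: batch 5 with 3 HGA and 3 AGASAC, batch 6 with 3 HGA and 2 AGASAC, and batch 8 with 2 HGA and 3 AGASAC. Within batches 5, 6 and 8 the log2FC of IGFBP4 was 2.80, 3.11 and 2.66, that of IGF1R 1.92, 2.09 and 2.71, that of IGFBP2 4.06, 2.31 and 1.80, and that of GHR −5.89, −3.31 and −5.66. Each of the 4 genes thus kept its direction in every batch, while with so few tumors IGFBP4 passed in batches 5 and 6 and IGF1R in batch 8. With the batch as a covariate over all 21 tumors the same 4 genes passed.

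Markers of other cells differed between the tumor types as well. Of all genes tested, 25.1% passed, 12.6% as higher and 12.5% as lower in HGA, and 53.7% had an unadjusted p under 0.05 in edgeR's test. Of 8 tested endothelial markers, 3 (CDH5, CLDN5 and TIE1) passed as higher in HGA, all 8 had an unadjusted p under 0.05, and their median log2FC was 1.17. The summed level of the 9 listed was 248 to 691 CPM in HGA, 72.0 to 300 CPM in AGASAC and 89.9 to 243 CPM in the metastases. Of 10 fibroblast markers none passed in edgeR's test, 3 had an unadjusted p under 0.05, and their sums were 1431 to 6359 CPM in HGA, 1084 to 8490 CPM in AGASAC and 783 to 13514 CPM in the metastases. Both tested skeletal muscle markers, ACTA1 and MYLPF, were lower in HGA, with sums over 8 genes of 1.71 to 29.2 CPM in HGA, 8.26 to 854 CPM in AGASAC and 1.86 to 3.22 CPM in the metastases. All 4 tested adipocyte markers passed, CIDEC, FABP4 and LPL as higher and ADIPOQ as lower in HGA, and the sums over 6 genes were 229 to 1414 CPM in HGA, 5.34 to 402 CPM in AGASAC and 8.04 to 86.3 CPM in the metastases. Of 6 smooth muscle and pericyte markers RGS5 and MCAM were higher in HGA, of 2 lymph node stroma markers CCL21 was higher, and of 9 macrophage markers C1QB was lower. Neither of the 2 tested lymphocyte markers passed in edgeR's test, and 1 had an unadjusted p under 0.05. The part of these cells in the IGF axis values was not tested. In the metastases, 5 of the 8 muscle markers were at 0 in all 4 samples. MYLPF had 0.958 to 2.60 CPM there, MYH7 up to 1.61 CPM and ACTA1 up to 0.639 CPM. Of the 6 hepatocyte markers found, neither of the 2 that could be tested passed or reached an unadjusted p under 0.05, and the sums were 6.02 to 29.6 CPM in HGA, 6.80 to 36.1 CPM in AGASAC and 16.9 to 51.8 CPM in the metastases. There HNF4A was at 0, ALB and APOB reached 0.322 and 0.531 CPM, APOA1 had 10.9 to 13.4 CPM, SERPINA1 3.54 to 20.4 CPM and FGB 0 to 32.9 CPM.

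The metastases were set beside the primary tumors of the same 4 dogs to see what differs after spread to the lymph node. None of the 10 genes passed in edgeR's test, and neither did any of the 12629 genes tested (0%); DESeq2 called 0 of the 10 genes and 5 genes in all. At an unadjusted p under 0.05, 1 of the 10 genes, IGF2, and 145 of all genes (1.15%) were found. IGF2 had 15.7 CPM in the primary tumor and 31.1 CPM in the metastasis of dog 1, 27.4 and 73.2 CPM in dog 2, 23.7 and 60.5 CPM in dog 3, and 59.2 and 328 CPM in dog 4. It was thus higher in the metastasis in 4 of 4 dogs, by 1.99-fold to 5.54-fold, and it was the only gene of the 10 with 1 direction in every dog, which 12.4% of all genes tested had. The log2FC was 1.96 (SE 0.75, unadjusted p = 0.0275, padj = 1), and without dog 4 it was 1.31 (padj = 1). These values come from a fit without the pairing. With the dog as a block, IGF2 had a log2FC of 1.58 (SE 0.26, padj = 1), and edgeR called 0 of the 10 genes and 1 gene in all.

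The other 9 genes were higher in the metastasis of some dogs and lower in that of others. IGF1R was lower in 3 of 4 metastases, and most so in dog 4, with 35.3 CPM in the primary tumor and 6.07 CPM in the metastasis. GHR was 1.04, 1.36 and 1.03 times as high in the primary tumor as in the metastasis of dogs 1, 2 and 3, with 230 and 220 CPM, 1194 and 879 CPM, and 830 and 805 CPM. In dog 4 it was 20.0 CPM in the primary tumor and 125 CPM in the metastasis. IGFBP5 was lower in 3 of 4 metastases, with 83.9 and 7.35 CPM in dog 4. Dog 2 went against the others for IGFBP2, IGFBP4 and IGFBP5, which were higher in its metastasis, as was IGFBP7 with 211 CPM in the primary tumor and 772 CPM in the metastasis. Metastasis 2 had the highest summed level of fibroblast markers of all 25 samples, 13514 CPM, against 783 to 3217 CPM in the other metastases. The part of this in its IGFBP values was not tested. The summed level of 3 marker lists was, like IGF2, higher in the metastasis of all 4 dogs. For lymphocytes it was 59.7 and 68.1 CPM in the primary tumor and the metastasis of dog 1, 36.6 and 60.2 CPM in dog 2, 30.2 and 77.8 CPM in dog 3, and 52.8 and 61.0 CPM in dog 4. For lymph node stroma it was 2.37 to 13.6 CPM in the 4 primary tumors and 10.4 to 26.5 CPM in the metastases, and for adipocytes 5.34 to 26.7 CPM and 8.04 to 86.3 CPM. The lymph node stroma sum was 15.9 to 158 CPM in HGA and 1.70 to 36.2 CPM over all primary AGASAC, so it was not particular to the lymph node samples. The part of the cells of these 3 lists in the IGF2 values was not tested.

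**Figure D3:**
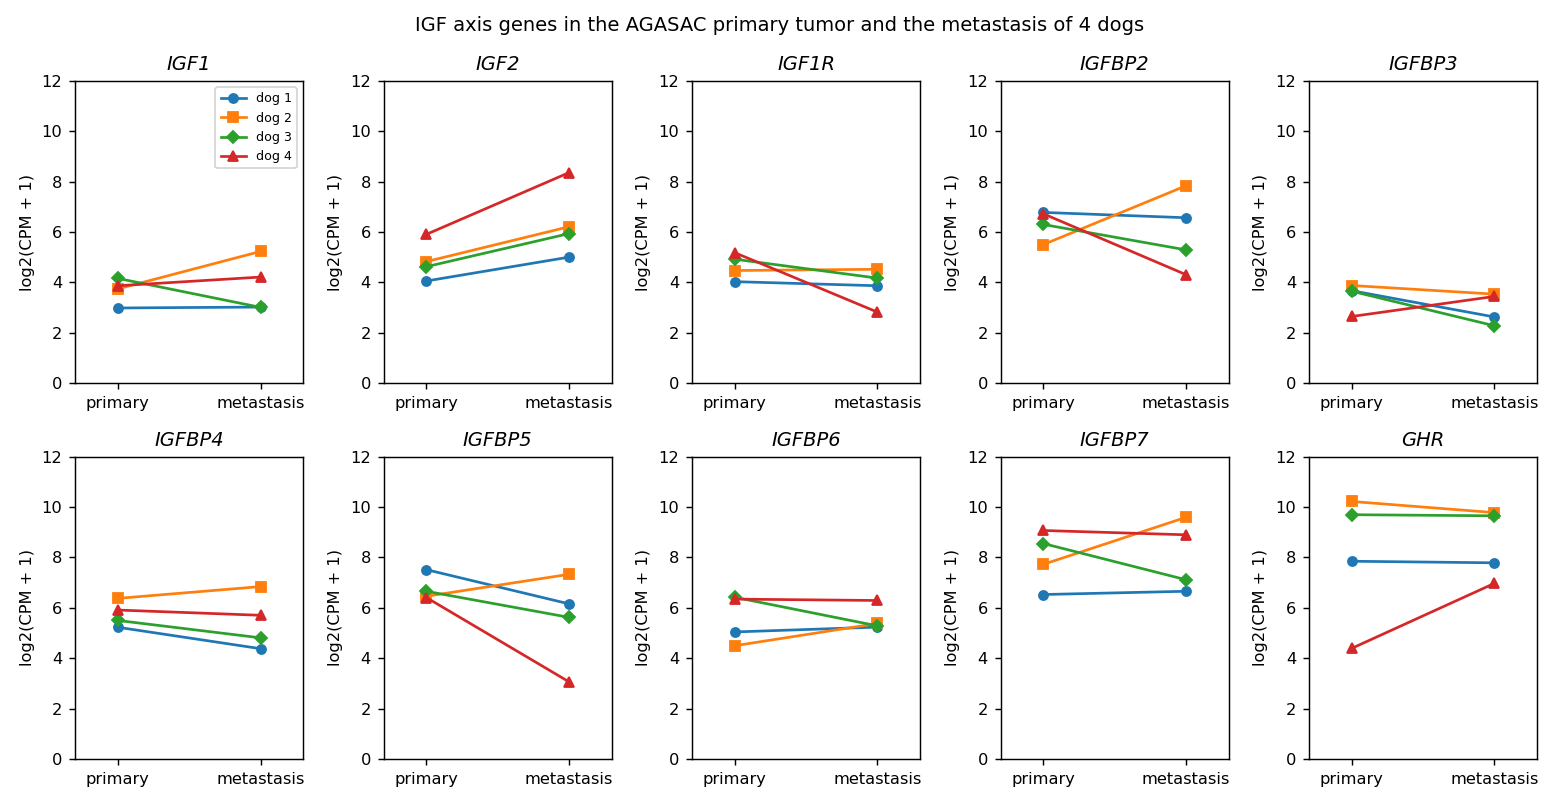
Level of the 10 genes as log2(CPM + 1) in the AGASAC primary tumor and in the lymph node metastasis of 4 dogs, with 1 line per dog. IGF2 is higher in the metastasis of all 4 dogs, the primary-to-metastasis ratio of GHR is 1.04, 1.36 and 1.03 in dogs 1 to 3, and dog 4 has the steepest downward lines for IGF1R, IGFBP2 and IGFBP5.

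Metastases and HGA were compared with the same 10 HGA as above, so that this comparison shares its samples with HGA versus AGASAC. Of the 10 genes, 4 passed, against 16.1% of 13195 genes tested. IGFBP4 (log2FC −2.90, SE 0.43, padj = 0.000822) and IGF1R (−2.57, SE 0.59, padj = 0.0318) were lower in the metastases. GHR (5.90, SE 0.71, padj = 0.000109) and IGF2 (2.76, SE 0.67, padj = 0.0482) were higher. IGFBP4 and GHR were the 2 genes of the 10 whose values did not overlap between metastases and HGA, which 16.1% of all genes tested also showed. Without metastasis 2 the log2FC of IGFBP4 was −3.60. IGF2 rested most on metastasis 4, without which its log2FC was 1.596 (padj = 0.929). It also did not pass without metastasis 2 (padj = 0.0712) or metastasis 3 (padj = 0.0637), or without any 1 of the HGA other than HGA 3 and HGA 7 (padj = 0.0669 to 0.0953). IGF1R did not pass without any 1 of the 4 metastases, with log2FC of −2.31 to −2.84 (padj = 0.0623 to 0.139), or without HGA 1, 3, 5, 6, 7 or 8 (padj = 0.0521 to 0.0593). Without HGA 4 and HGA 10, IGF1R (−2.84, padj = 6.78e-05), IGFBP4 (−2.88, padj = 0.00151) and GHR (5.64, padj = 0.000169) passed and IGF2 did not (2.65, padj = 0.105).

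**Figure D4:**
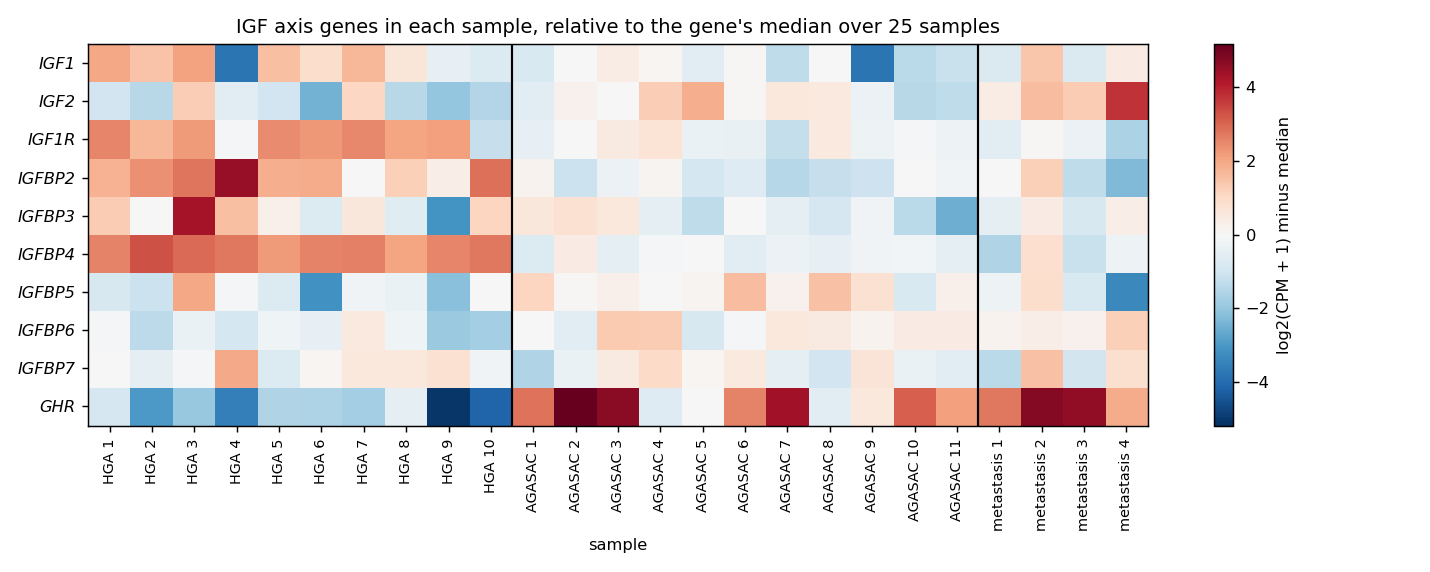
Level of the 10 genes in each of the 25 samples as log2(CPM + 1) minus the median of the gene over all samples; red is above and blue below that median, and black lines part HGA, AGASAC primary tumors and metastases. The IGFBP4 row is red in all HGA, the IGF1R row is red in 8 of 10 HGA, and the GHR row is blue in all HGA and darkest red in AGASAC 2 and 3 and their metastases.

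HGA are known to grow under sex hormones, and the neuter status of each dog was given. HGA 4, 6, 7 and 9 came from intact males, and HGA 3 and 5 from intact females. The neutered dogs were the females of HGA 1, 2 and 8 and the male of HGA 10. In HGA, sex and neuter status thus cannot be fully told apart. Between the HGA of 6 intact and 4 neutered dogs, edgeR's test called none of the 10 genes and none of 11906 genes (0%), with 0 of the 10 and 1167 of all genes at an unadjusted p under 0.05. DESeq2 called 0 of the 10 genes and 20 genes in all. The log2FC of intact relative to neutered dogs ran from −0.80 for GHR (SE 0.91) to 1.505 for IGFBP3 (SE 1.14), and IGF2, with 1.42 (SE 0.73, unadjusted p = 0.0737, padj = 1), was nearest to the threshold. IGF2 was 3.47 to 58.2 CPM in intact dogs and 7.74 to 11.6 CPM in neutered dogs. IGFBP4 was 289 to 478 CPM in intact and 256 to 607 CPM in neutered dogs, so the range of the intact dogs lay within that of the neutered dogs.

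The test of whether the difference between HGA and AGASAC depends on sex called none of the 10 genes and none of 13826 genes in edgeR (0%), with 1 of the 10 and 1191 of all genes at an unadjusted p under 0.05. DESeq2 called 0 of the 10 genes and 10 genes in all. The 1 gene was GHR, whose log2FC of HGA versus AGASAC was more negative in males than in females (interaction −3.82, SE 1.25, unadjusted p = 0.00607, padj = 1). In AGASAC, GHR was 47.0 to 1194 CPM in 6 males (median 471 CPM) and 20.0 to 230 CPM in 5 females (median 31.9 CPM). In HGA it was 0 to 10.0 CPM in males and 3.16 to 23.0 CPM in females. Both intact AGASAC dogs were female and had 20.0 and 21.8 CPM, so that in AGASAC, as in HGA, sex and neuter status cannot be fully told apart.

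Beyond the 10 genes, 65 genes of the axis and its signaling were listed by role, of which 60 were found by symbol and STAT5B by its gene number. INS, GHRHR, GHSR and IGF2BP1 were not matched. In HGA versus AGASAC, 13 of 51 tested genes passed (25.5%), 9 higher and 4 lower in HGA, against 25.1% of all genes, and the median log2FC was 0.21. Between metastases and their primary tumors 0 of 50 passed in edgeR, with 0 at an unadjusted p under 0.05. Between metastases and HGA 10 of 51 passed (19.6%), against 16.1% of all genes. The share of this list that passed was thus near the background in both comparisons that called genes, and the genes named next are given for their own values.

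The other receptors and carriers did not pass in HGA versus AGASAC. IGF2R, which removes IGF2 from the cell surface, was 305 ± 84.2 CPM in HGA (SD, n = 10) and 185 ± 75.0 CPM in AGASAC (SD, n = 11), with a log2FC of 0.75 (padj = 0.0922). The insulin receptor INSR had 75.7 ± 32.6 and 114 ± 42.0 CPM (log2FC −0.57, padj = 0.606). IGFBP1 and IGFALS, which are made mostly by the liver, were too low to test, with at most 6 and 5 counts in any sample. None of the 8 tested genes for IGFBP proteases and their inhibitors passed in edgeR's test, with 3 at an unadjusted p under 0.05, and PAPPA, which cleaves IGFBP4, had a log2FC of 0.43 (SE 0.55, padj = 1). None of the genes for IGF2 mRNA-binding proteins was high enough to test: IGF2BP2 had at most 25 counts, in HGA 7.

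Downstream of GHR, 4 of 7 tested genes passed, against 25.1% of all genes tested. JAK2, the kinase bound to GHR, had 45.6 to 404 CPM in HGA and 15.4 to 47.4 CPM in AGASAC (log2FC 2.55, padj = 1.42e-05). STAT5A, a transcription factor that JAK2 activates, was 71.3 ± 30.3 CPM in HGA (SD, n = 10) and 16.1 ± 9.52 CPM in AGASAC (SD, n = 11), with a log2FC of 2.17 (padj = 2.86e-05). Both were thus higher in the tumor with the low GHR counts. The feedback inhibitor SOCS1 was higher in HGA (log2FC 2.21, padj = 0.0255), SOCS3 was lower (−1.26, padj = 0.0434), and SOCS2, a growth hormone target, did not pass (1.02, SE 0.56, padj = 1).

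Near the receptor IGF1R, 2 of 8 tested adaptors and inhibitors passed (25%), near the 25.1% of all genes tested. ENPP1, a membrane enzyme that dampens the insulin receptor, was 46.0 to 115 CPM in HGA and 0.699 to 15.6 CPM in AGASAC (log2FC 3.70, padj = 8.2e-08). Its ranges did not overlap, as in 9.13% of all genes tested. GRB14, an adaptor that inhibits insulin receptor signaling, ranged from 0.860 CPM in HGA 10 to 80.4 CPM in HGA and from 0.297 to 9.73 CPM in AGASAC (log2FC 3.44, padj = 0.000635). IRS1 and IRS2, the main docking proteins of both receptors, did not pass, with log2FC of −0.36 (SE 0.32) and −0.40 (SE 0.35).

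Of 25 genes of the PI3K, AKT, FOXO and mTOR group, 7 passed (28%), 4 higher and 3 lower in HGA, near the 25.1% of all genes tested. The regulatory subunits of PI3K differed in opposite directions. PIK3R1 was 53.5 to 508 CPM in HGA and 6.99 to 32.7 CPM in AGASAC (log2FC 3.25, padj = 2.96e-07), and PIK3R2 was 76.8 to 208 CPM and 21.7 to 37.4 CPM (2.40, padj = 1.64e-09). PIK3R3 was lower in HGA, with 8.14 to 23.1 CPM against 13.2 to 366 CPM (−3.09, padj = 0.000505). The stress-induced sestrins, which restrain mTOR, also split: SESN1 was higher in HGA (2.72, padj = 1.59e-06) and SESN3 lower (−2.53, padj = 1.09e-06), both without overlap between the groups. FOXO3, a transcription factor that AKT inactivates, was lower in HGA (−1.16, padj = 0.0015), also without overlap. Of all genes tested, 9.13% had no overlap between the groups.

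**Figure D5:**
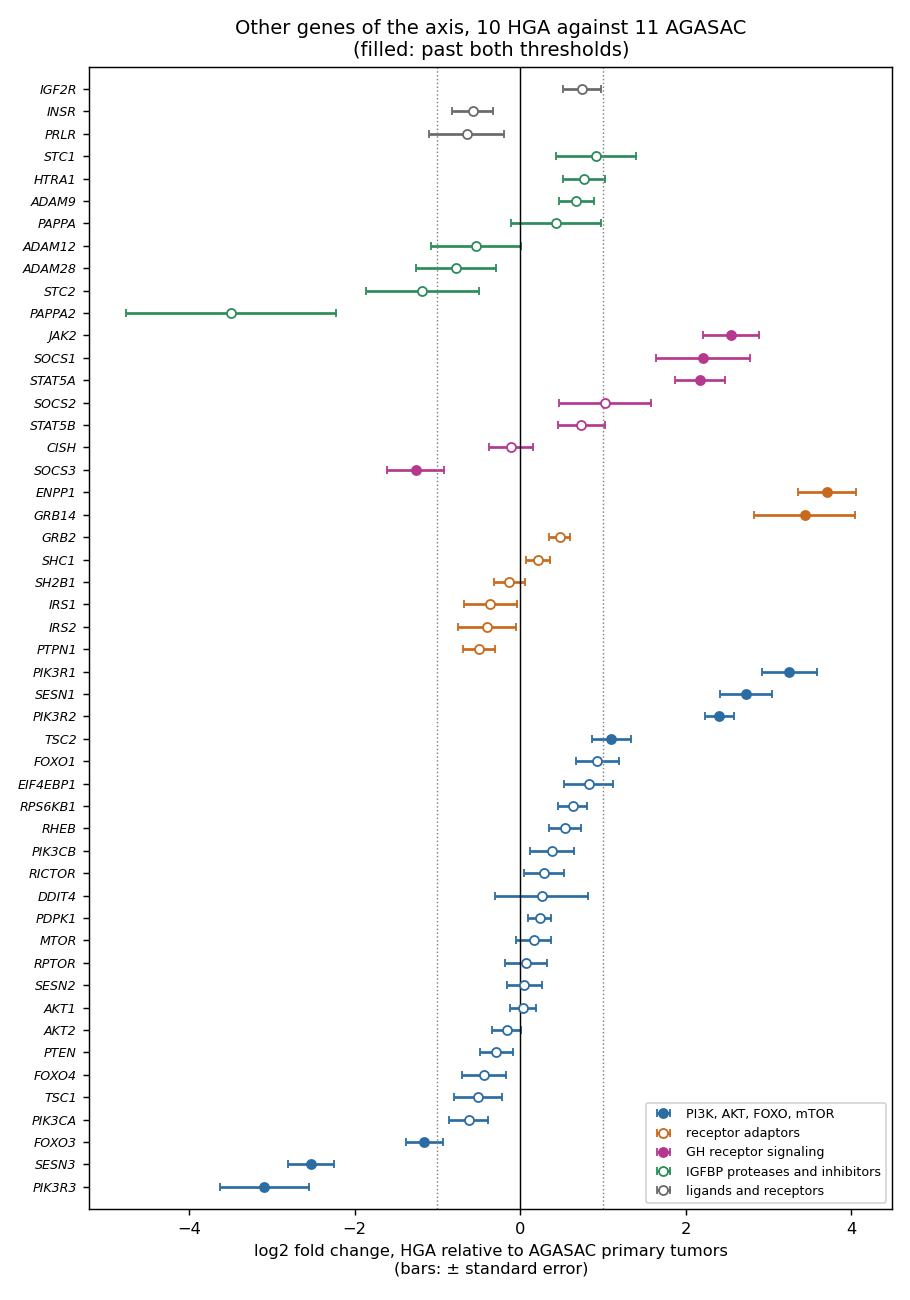
Log2 fold change in HGA relative to AGASAC primary tumors, with its standard error, of 50 of the 51 listed genes of the axis that could be tested, colored by role; filled points passed both thresholds. Filled points lie on both sides of 0, with ENPP1 (3.70) and GRB14 (3.44) farthest right and PIK3R3 (−3.09) and SESN3 (−2.53) on the left; the open point farthest left, PAPPA2, has a wide error bar.

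Across the 21 primary tumors, centered on the mean of each tumor type, the genes most like each of the 10 were ranked by Pearson's r on log2(CPM + 1). These correlations are a description over 21 tumors that share libraries and depth. ELOVL5 (r = 0.91), FBP1 (r = 0.90) and ARNTL2 (r = 0.90) were most like IGF1R. Without HGA 4 and HGA 10 their r was 0.69, 0.41 and 0.74, so the likeness rested in part on the low values of these 2 tumors. IGF1 was most like FBXO34 (r = 0.88, and 0.78 without HGA 4 and HGA 10) and IGFBP2 most like ERH (r = 0.85, and 0.78 without them). IGFBP6 was most like SLIT3 (r = 0.78), GHR most like ROR2 (r = 0.80) and IGF2 most like CREB3L1 (r = 0.79). Leaving out HGA 4 and HGA 10 gave 0.79, 0.79 and 0.82 for these pairs. IGFBP7 was most like TIE1, a receptor of endothelial cells (r = 0.83, and 0.77 without HGA 4 and HGA 10). IGFBP5 was most like another gene of the 10, IGFBP3 (r = 0.70), and IGFBP3 was most like DUSP14 (r = 0.74). HGA 3 had the highest level of both IGFBP5 and IGFBP3. Without HGA 4 and HGA 10 the r of IGFBP5 with IGFBP3 was 0.68, below its r with NCCRP1 (0.78). HGA 3 was still among these 19 tumors, and whether the likeness holds without it was not tested. IGFBP4, which varied least, had the weakest best match, ACACA (r = 0.66), an enzyme of fatty acid synthesis.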

How the data were processed

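The authors prepared QuantSeq 3′ FWD libraries from FFPE RNA, trimmed the reads with cutadapt, aligned them to CanFam3.1 with STAR and counted them per gene with featureCounts in 2 rounds, the second on genes extended by 2 kilobases at the 3′ end. Multi-mapped reads were shared evenly among their locations, so genes with near-identical copies are uncertain. Version numbers are not given in the sources used here. The raw counts deposited by the authors were used for all results. The deposited table also holds the authors' normalized counts (signal values, 25 columns) and the log2 fold change, p-value and adjusted p-value columns of their own comparison, none of which were used.

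Genes were filtered with filterByExpr, scaled by TMM and tested with the quasi-likelihood test of edgeR 4.0.16 in R 4.3.3. Benjamini-Yekutieli adjusted p-values (padj) were taken over all genes tested. DESeq2 1.42.0 was an alternative, with other filters, scalings, covariates and left-out samples. Replicates are tumors of different dogs, and the metastases were matched to primary tumors through the labels. Samples of the same dog deviated together from their group means (r = 0.428 to 0.730 over genes). No pair of samples of the same group agreed within sampling noise (lowest chi-square per degree of freedom 13.5). Pairs across groups were not compared. The scripts were tested on simulated counts. The 10 genes and all other lists were chosen with earlier results of these data known. Named were the 10 genes, fixed genes of the axis, and the 12 listed axis genes with the largest absolute log2FC among those that passed. The values of 1 listed axis gene are not reported here; it stays in the counts. Extraction batch and file naming style came from the study's sample lists. RefSeq gene tables (UU_Cfam_GSD_1.0) were used only for names and neighbors. The depth is 1562347 to 6389555 counts per sample.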

Additional observations from a re-analysis of the deposited data

Results flagged for a closer look

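Among the 20 sets tested (10 genes in the 10 HGA and in the 4 metastases), 6 had a sample far from the others by Dixon's test. For normally distributed values, chance gives this in about 1 of 20 sets. CPM values need not be normal and the sets share their samples, so the 6 cannot be weighed against that rate. In HGA 4, IGFBP2 was 2235 CPM and IGFBP7 was 1054 CPM, each the highest of the 10 HGA. In HGA 3, IGFBP3 was 170 CPM and IGFBP5 was 339 CPM, also the highest of their group. In metastasis 4, IGF2 was 328 CPM and IGFBP6 was 77.3 CPM, each the highest of the 4 metastases. Of these, IGFBP2 passed in HGA versus AGASAC with and without HGA 4, IGFBP5 passed only without HGA 3, and IGF2 passed between metastases and HGA only with metastasis 4. The causes were not tested.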

How the results depend on the processing

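Of 40 alternatives to HGA versus AGASAC, 37 gave between 3 and 6 of the 10 genes, and leaving out 1 tumor at a time gave 4 to 5. GHR passed in all of them but the 3 within single extraction batches, and IGFBP4 in all but batch 8; 1 gene passed in each of batches 5, 6 and 8. Beyond these batches, IGF1R was lost with the naming style as a covariate, and IGFBP2 within the naming style of 9 HGA and 3 AGASAC (log2FC 2.86, padj = 0.231). With Benjamini-Hochberg adjustment, IGF1 and IGFBP3 passed too, and with library size alone IGFBP6 did (log2FC −1.27, padj = 0.0155). Metastases against HGA gave 2 to 3 genes when 1 sample was left out, against 4; IGFBP4 and GHR passed in all 19 alternatives, IGF2 was lost in 12 and IGF1R in 10. With the dog as a block (replicate block), metastases against primary tumors gave 0 of the 10 genes, as without it, and 1 gene in all; the log2FC of IGF2 was then 1.58 (padj = 1). Intact against neutered dogs, and the dependence on sex, gave 0 genes in all alternatives. No gene that passed changed direction. The fits within batches and without both HGA 4 and HGA 10 were chosen after seeing the data. Low counts limit IGFBP3, IGF2 and GHR in HGA, with medians of 30 counts for IGFBP3, 16 for GHR and a value between these for IGF2. IGF1 and IGFBP3 in AGASAC, and IGFBP3 in the metastases, also had medians under 30 counts. The causes were not tested.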

Other observations

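PAPPA2, a protease that cleaves IGFBP3 and IGFBP5, was singled out after its values were seen. It was counted at 624, 43.1, 219 and 17.8 CPM in AGASAC 1 to 4, the dogs whose metastases were sampled, and at 615, 461, 108 and 360 CPM in these metastases. In AGASAC 5 to 11 it ranged from 0 to 4.51 CPM, with no count in 5 of the 7 tumors. In HGA it ranged from 0 to 19.1 CPM, and all metastases lay above all HGA (log2FC 5.73, SE 0.66, padj = 7.72e-05 in edgeR's test). HGA versus AGASAC did not pass (log2FC −3.49, SE 1.27, padj = 0.266). AGASAC 5 to 11 and HGA 10 shared a file naming style that AGASAC 1 to 3 and the other 9 HGA did not have, and that of AGASAC 4 was not known, so that in AGASAC the sampled metastasis and the naming style cannot be told apart.

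Male and female AGASAC were compared after the values of GHR were seen. In 6 males relative to 5 females, GHR was higher (log2FC 2.41, SE 0.89, unadjusted p = 0.0182), and IGF2 (−1.13, SE 0.49, unadjusted p = 0.0367) and IGFBP5 (−0.82, SE 0.35, unadjusted p = 0.0339) were lower, by edgeR's quasi-likelihood test, with padj = 1 for all 3. Of 12751 genes tested 1 passed, and 608 had an unadjusted p under 0.05.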
